A study of Mus musculus with 3 samples.

Results

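Heat shock proteins and chaperones are described here in LT-HSCs, long-term hematopoietic stem cells of the bone marrow, which renew themselves and give rise to all blood lineages. The 42 genes were chosen by name, as chaperone families and the factors that control or assist them, with earlier results of the same arrays known, among 37074 gene names on the array. For each gene the probe with the highest mean signal over the 3 arrays was selected on that signal, and its other probes served as a check. The 42 genes were read by 88 of 56605 probes, and 23 of them by more than 1 probe. All differences are descriptions of these arrays, since the choice of genes is not independent of them.

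There was 1 array for each of 3 genotypes of C57BL/6J mice, labelled as 11 weeks old. WT mice carried floxed alleles without Cre and received tamoxifen, per the methods. AtmsKO mice carried CAG-CreERT2 and floxed Atm, the gene of the kinase that responds to DNA breaks. Atmp38dKO mice carried CAG-CreERT2, floxed Atm and floxed Mapk14, the gene of p38α. Both mutants received tamoxifen, which activates CreERT2, and the CAG promoter drives that recombinase in nearly all cells, so deletion was not limited to HSCs. Cells were sorted as CD150+CD48-Flt3-CD34- LSK, where LSK denotes lineage-negative, Sca-1-positive and c-Kit-positive cells, to which the methods add CD41-, although the series text names only CD34 and Flt3 beside LSK and implies a younger age. How many mice contributed to each array is not given in the sources used here. With 1 array a group there was no replicate check and no test, and every difference below compares arrays, not conditions.

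Chaperones bind unfolded or newly made proteins and keep them from aggregating. In the cytosol HSP70 works in cycles, with J proteins delivering the substrate and starting ATP hydrolysis and HSP110 and BAG proteins exchanging the nucleotide, before some clients pass to HSP90. Heat shock factor 1 (HSF1) turns on the inducible members of these families when unfolded proteins accumulate, by binding heat shock elements in their promoters. The chaperones of the endoplasmic reticulum (ER) answer to a separate system, the unfolded protein response, through ER stress elements. Hspb1 encodes a small heat shock protein that is a classical substrate of MK2, the kinase directly below p38α. HSCs keep a low rate of protein synthesis and are known to be sensitive to unfolded protein.

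Promoter sequences from RefSeq on build GRCm38.p6 were at hand for 35 of the 42 genes, each from 250 bases before the transcription start to 50 bases after it. They were searched on both strands for a heat shock element of 2 units (GAANNTTC), one of 3 units (GAANNTTCNNGAA, which contains the former) and an ER stress element (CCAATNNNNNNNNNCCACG). The heat shock element of 2 units was found in 11 of the 35 genes, or 31.4%, against 9.04% of all 27025 genes with a promoter, and 10 of these 11 were among the 15 heat-inducible genes in the table. The element of 3 units was found in Hsph1, Hspd1, Hspe1, Dnajb6 and Chordc1, or 14.3% of the 35 genes, against 0.662% of all genes. The sequences below are the 150 bases just upstream of the start, 5′ to 3′ on the gene's strand, with heat shock elements in capitals. They are shown because Hspa1a, Hspa1b and Hspb1 were among the genes with the lowest levels on the mutant arrays relative to WT, while Hspe1 and Dnajb6 carry the longer element and stayed within 2-fold. Hsph1 carries the longer element too and was at least 2-fold lower on both mutant arrays. Dnajb1, Dnajb4 and Trap1, at least 2-fold lower on Atmp38dKO, held no heat shock element in their windows. On AtmsKO the genes at least 2-fold lower were Hspa1a, Hspa1b, Hsph1, Hspb1 and Hspb8, and all of them held the element of 2 units. Its other carriers, Hspd1, Hspe1, Dnaja1, Dnajb6, Bag3 and Chordc1, stayed within 2-fold of WT on both mutant arrays. Whether the elements bear on the levels was not tested.
Hspa1a: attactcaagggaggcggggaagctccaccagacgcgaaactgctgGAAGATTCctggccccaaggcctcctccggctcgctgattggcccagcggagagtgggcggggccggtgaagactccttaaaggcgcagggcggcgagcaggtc
Hspa1b: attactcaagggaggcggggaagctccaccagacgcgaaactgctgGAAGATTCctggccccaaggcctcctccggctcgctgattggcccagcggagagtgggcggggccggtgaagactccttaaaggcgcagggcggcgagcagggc
Hspb1: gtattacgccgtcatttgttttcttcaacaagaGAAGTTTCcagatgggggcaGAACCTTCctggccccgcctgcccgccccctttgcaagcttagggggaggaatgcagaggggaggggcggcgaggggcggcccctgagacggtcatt
Hspe1: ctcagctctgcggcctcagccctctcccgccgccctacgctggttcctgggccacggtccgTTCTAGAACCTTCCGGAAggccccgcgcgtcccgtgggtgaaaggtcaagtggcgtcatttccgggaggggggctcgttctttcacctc
Dnajb6: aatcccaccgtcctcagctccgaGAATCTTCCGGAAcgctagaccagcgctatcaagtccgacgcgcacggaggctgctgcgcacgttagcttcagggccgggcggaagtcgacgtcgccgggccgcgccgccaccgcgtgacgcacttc

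The Hspa1a window lies at chr17:34972157-34972306 on the minus strand and that of Hspa1b at chr17:34959239-34959388 on the minus strand. They are equal at 149 of 150 bases, and each has its element 104 to 97 bases before the start. The Hspb1 window, at chr5:135887769-135887918 on the plus strand, has elements at 117 to 110 and 97 to 90 bases before the start. The Hspe1 window is chr1:55087998-55088147 on the plus strand, and its element, of overlapping units 89 to 72 bases before the start, is shared with Hspd1, whose start lies 216 bases away on the opposite strand. The Dnajb6 window at chr5:29735829-29735978 on the plus strand is that of 1 of its starts. Elements of Hsph1, Hspb8, Bag3 and Chordc1 lay at or downstream of the start and are not printed. A match describes the letters in the window and was not tested as a site.

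The ER stress element was found in Hspa5, Hsp90b1 and Dnajc3, which are 3 of the 5 ER chaperone genes in the table, and in 0.137% of all genes. No heat-inducible gene in the table held it. The sequences of these genes are shown for comparison, with the ER stress element in capitals.
Hspa5: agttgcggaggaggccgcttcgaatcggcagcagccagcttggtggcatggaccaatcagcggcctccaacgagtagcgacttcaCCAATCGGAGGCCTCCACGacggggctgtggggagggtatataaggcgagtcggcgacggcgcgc
Hsp90b1: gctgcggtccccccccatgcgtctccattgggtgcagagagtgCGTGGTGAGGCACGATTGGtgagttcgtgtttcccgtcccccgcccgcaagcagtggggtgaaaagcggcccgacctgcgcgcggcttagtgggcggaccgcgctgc
Dnajc3: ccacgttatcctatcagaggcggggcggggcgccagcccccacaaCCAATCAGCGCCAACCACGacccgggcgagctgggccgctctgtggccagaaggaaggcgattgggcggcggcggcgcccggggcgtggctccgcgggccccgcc

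These windows are chr2:34771940-34772089 on the plus strand for Hspa5, chr10:86705445-86705594 on the minus strand for Hsp90b1 and chr14:118937782-118937931 on the plus strand for Dnajc3. The element lies 65 to 47, 107 to 89 and 105 to 87 bases before the start, in that order, and Hsp90b1 holds a further copy upstream of the printed stretch.

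The targeted genes were read first. At its brighter probe Atm had a signal of 87.0 on WT, 23.9 on AtmsKO and 86.5 on Atmp38dKO, and at its other probe 88.8, 16.3 and 49.0. Mapk14 had 469, 558 and 616 at its brighter probe and 295, 260 and 345 at the other. Atm was thus lower on the AtmsKO array at both probes, but on the array labelled Atmp38dKO it was 2.10-fold lower at 1 probe and 1.17-fold lower at the other, and Mapk14 was not lower at either probe. Whether these probes lie within the deleted exons is not given in the sources used here. The name Atmp38dKO below therefore means the array labelled so, and the AtmsKO against WT comparison does not use that array.

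Of all probes, 73.3% passed as well above background on WT, 68.9% on AtmsKO and 77.7% on Atmp38dKO. Signals are background-subtracted intensities as deposited, and differences are on the log2 scale after each array was divided by its 75th percentile (102, 96.2 and 118). Probes printed repeatedly on an array differed by a median SD of 0.0527 to 0.0535 on the log2 scale, which covers printing and scanning only and gives a difference a spread of about 0.075. A gene was counted as higher or lower if it differed at least 2-fold and was well above background on the brighter array.

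All 10 HSC markers were well above background on every array, among them Kit at 2652, 2773 and 3248 and Procr at 546, 525 and 449 on WT, AtmsKO and Atmp38dKO. After scaling, the median log2 difference of the HSC markers from WT was 0.05 on AtmsKO and -0.49 on Atmp38dKO, with 9 of 10 below 0 on the latter, so this list was lower beside the chaperones on that array. Fgd5 and Hoxb5 were lower by at least 2-fold there, with 198, 146 and 69.8 for Fgd5 and 91.4, 107 and 34.0 for Hoxb5. Of the genes whose protein the gate excludes, Cd34 was read at 1694, 1666 and 2185, and Cd48 at 17.2, 21.2 and 34.0. Summed signals of markers of other cells were 247, 242 and 356 for erythroid cells (5 genes), 2964, 3273 and 3963 for granulocytes (7), 1305, 2605 and 1840 for megakaryocytes (4), 358, 300.2 and 396 for B cells (4), 187, 204 and 307 for T cells (4), 2986, 2443 and 2843 for macrophages (4) and 74.2, 185 and 73.0 for stroma and endothelium (5). Single genes carried some of these unscaled sums, namely Csf1r for macrophages (2530 on WT), Pf4 for megakaryocytes (2366 on AtmsKO) and Kdr for endothelium (5.88, 114 and 18.1). After scaling, all 4 macrophage markers were below WT on Atmp38dKO, with a median of -0.62, among them Cd68 at -0.94. Of the defining markers of these cells, Cdh5 was below background on all arrays, Cd3g on WT and AtmsKO, Ebf1 on WT, and Adgre1 on Atmp38dKO. The part of these cells in the differences below was not tested. In bulk RNA of sorted cells, fewer cells with a transcript and less of it per cell cannot be told apart.

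Across the family, several heat-inducible cytosolic chaperones were lower on both mutant arrays than on WT, while the other members lay on both sides of WT. Of the 42 genes, 40 were well above background on all 3 arrays at their brightest probe, Hspa13 passed there on WT only and Hspa12a on none. Hspa13 entered the comparison of Atmp38dKO with WT at the floor of the mutant array, and Hspa12a entered none. On AtmsKO relative to WT, 5 of the 41 genes compared were at least 2-fold lower (Hspa1a, Hspa1b, Hsph1, Hspb1 and Hspb8) and 1 was higher (Hspa1l), where 4.09% of all 28865 genes were lower and 3.94% higher. On Atmp38dKO relative to WT, 7 of 41 were lower (Hspa1a, Hspa1b, Hsph1, Hspb1, Trap1, Dnajb1 and Dnajb4) and 1 was higher (Dnajb5), where 4.49% of all 30456 genes were lower and 4.02% higher. On Atmp38dKO relative to AtmsKO, 1 of 40 was lower (Hspb1) and 2 were higher (Hspb8 and Dnajb5), where 3.72% of 30017 genes were lower and 3.75% higher. The first and second comparisons share the WT array, so each gives its own values and their likeness is not a result.

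Dim genes differed more between arrays than bright genes. Among 34 members with a mean signal of at least 100, a limit set after the data were seen, 4 were lower and 0 higher on AtmsKO relative to WT, where 0.809% of 11248 such genes were lower and 0.818% higher. On Atmp38dKO relative to WT 6 were lower and 1 higher, where 1.16% were lower and 1.08% higher. Between the mutant arrays 1 was lower and 1 higher, where 0.827% were lower and 0.969% higher. The limit is on the mean over the 3 arrays, so it uses the values that are compared. Dnajb5, the gene counted as higher, exceeded 100 on Atmp38dKO only (53.9, 84.5 and 345). Hspb1, among those counted as lower, had 320, 146 and 50.2. These counts are therefore not independent of the differences. With the background corrected by the normexp method instead, the members at least 2-fold lower and higher numbered 3 and 0, 6 and 1, and 1 and 1 in the 3 comparisons.

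The median log2 difference of the members was -0.15 on AtmsKO and -0.30 on Atmp38dKO relative to WT, beside 0.01 and 0.02 over all genes, and -0.19 between the mutant arrays, beside 0.00. Of the 40 members above background on every array, 25 had their highest level on WT, 10 on AtmsKO and 5 on Atmp38dKO, where 31.2% of 25390 genes were highest on WT. The lowest level was on Atmp38dKO for 22 of the 40, where 33.3% of all genes were lowest there. For the 19 genes listed as heat-inducible, the median was -0.40 and -0.38 relative to WT, and 14 of 19 were highest on WT. For the 22 other members compared it was 0.02 and -0.17. The heat-inducible list is a hand-written one, made with these results known. Its genes are Hspa1a, Hspa1b, Hspa8, Hsph1, Hspa4l, Hsp90aa1, Hsp90ab1, Hspb1, Hspb8, Cryab, Hspd1, Hspe1, Dnaja1, Dnajb1, Dnajb4, Bag3, Stip1, Ahsa1 and Chordc1. Hspa8 and Hsp90ab1 are on it although they are called constitutive below. Its counts are 5 lower and 0 higher on AtmsKO and 6 lower and 0 higher on Atmp38dKO, where 4.09% and 4.49% of all genes were lower.

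**Figure D1:**
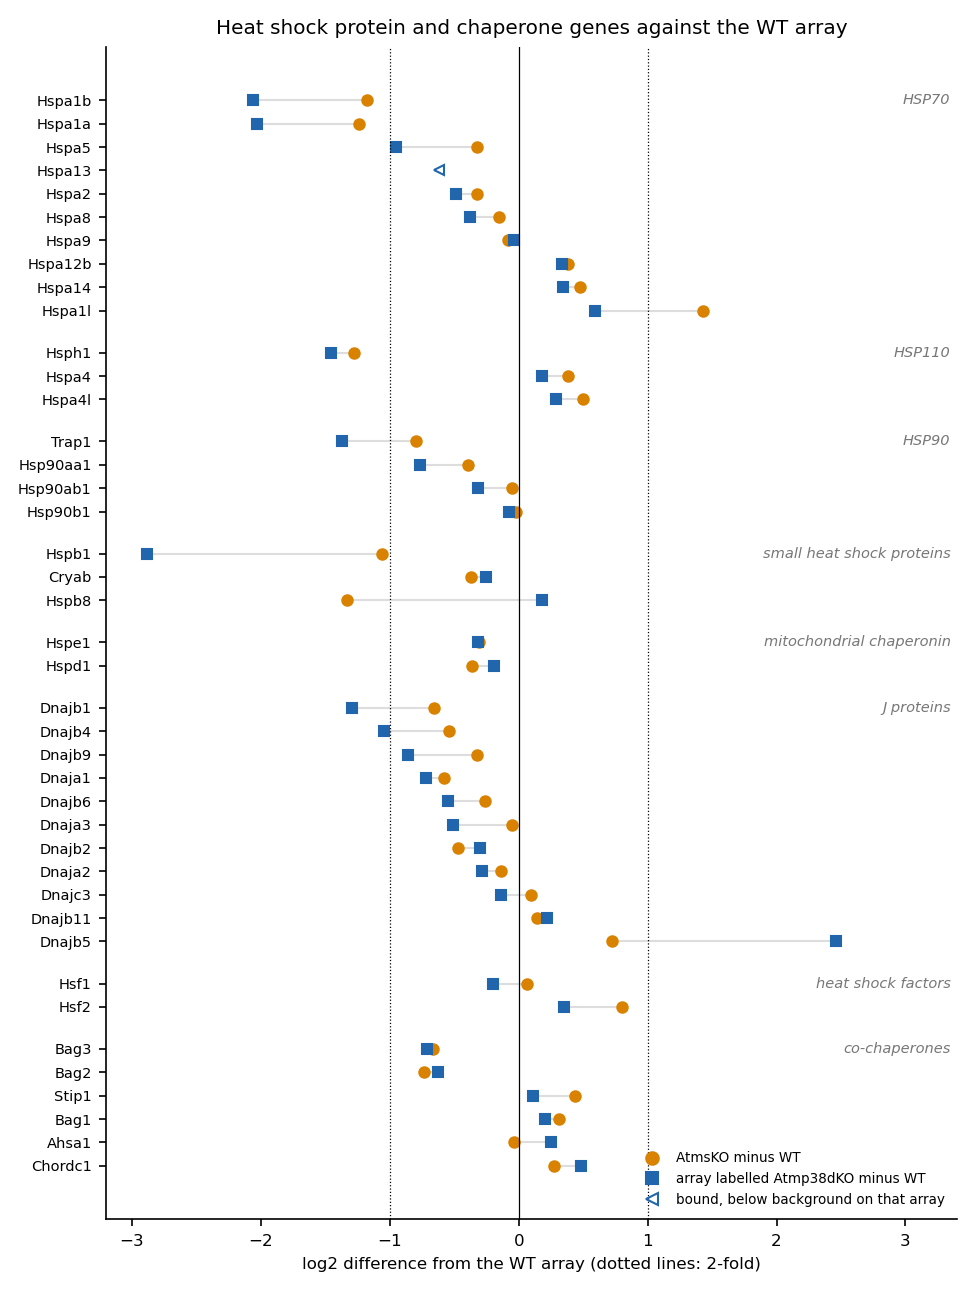
Log2 difference from the WT array (x axis) for each member except Hspa12a, grouped by family, with circles for AtmsKO and squares for the array labelled Atmp38dKO; the dotted lines mark 2-fold and the open triangle a bound. Hspa1a, Hspa1b, Hsph1 and Hspb1 lie beyond the 2-fold line at the left on both mutant arrays, and Dnajb5 lies at 2.46 on Atmp38dKO.

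Among the HSP70 genes, the twin stress-inducible genes Hspa1a and Hspa1b were at least 2-fold lower on both mutant arrays. Hspa1a (probe at chr17:35106766-35106825, mm9) had a signal of 11889 on WT, 4782 on AtmsKO and 3383 on Atmp38dKO. Hspa1b, its neighbour on the same chromosome, had 6430, 2691 and 1784. WT was highest and Atmp38dKO lowest for both genes. The log2 differences from WT were -1.24 and -2.03 for Hspa1a and -1.18 and -2.06 for Hspa1b, that is 2.36-fold and 4.08-fold lower for the former and 2.27-fold and 4.18-fold lower for the latter. The coding sequences of these genes are nearly alike, but their probes share no run of more than 5 bases out of 60, so the readings come from different stretches. Each gene has only 1 probe.

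Hspa8, the constitutive HSP70 of the cytosol, had 39504, 33679 and 35201 on WT, AtmsKO and Atmp38dKO. Its log2 differences from WT were -0.15 and -0.38, and its other 3 probes gave -0.25 to -0.16 on AtmsKO and -0.59 to -0.55 on Atmp38dKO, so all 4 probes read the same order with WT highest. Hspa5 (BiP), the HSP70 of the ER lumen, had 7543, 5726 and 4527, with differences of -0.32 and -0.95. It lay just short of 2-fold on Atmp38dKO, and its other 2 probes gave -0.72 and -1.15 there. Hspa9, the mitochondrial HSP70, differed from WT by -0.09 and -0.04, about the spread of repeat spots.

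The remaining HSP70 genes followed no common order. Hspa1l, another HSP70 gene of the cluster that holds Hspa1a and is best known from testis, was read at 14.2, 36.3 and 25.0. It was 2.69-fold higher on AtmsKO than on WT, opposite to its neighbours, and under normexp the log2 difference was 0.44 in place of 1.43. Hspa2 had 130, 98.9 and 108, Hspa12b had 83.2, 103 and 122, and Hspa14, a ribosome-associated HSP70, had 386, 507 and 567. The 5 probes of Hspa14 ran from -1.11 to 0.63 on AtmsKO relative to WT, so its direction depended on the probe. At its brightest probe Hspa13 had 6.59 on WT and was below background on the mutant arrays, which made it at least 1.54-fold lower on Atmp38dKO and gave no fold on AtmsKO. Its other probe was below background on WT and AtmsKO but above it on Atmp38dKO, at 7.21, so the probes point in opposite directions and no direction can be given.

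The HSP110 proteins exchange the nucleotide of HSP70, and they split. Hsph1 (HSP105) had 7005 on WT, 2738 on AtmsKO and 2958 on Atmp38dKO. The mutant arrays were close to each other, with a log2 difference of -0.18 between them, and both lay below WT, by 2.42-fold and 2.75-fold. Its other 2 probes, at signals of 1724 and 225 on WT, gave -1.36 and -1.50 on AtmsKO and -1.87 and -1.74 on Atmp38dKO, so every probe passed 2-fold on both arrays. Hsph1 was the only called member of the AtmsKO comparison with a further probe above background.

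The relatives Hspa4 and Hspa4l did not share this, although Hspa4l is on the heat-inducible list. Hspa4 had 1540, 1904 and 2024 and Hspa4l had 50.6, 67.7 and 71.9, which gave 0.38 and 0.50 on AtmsKO and 0.18 and 0.29 on Atmp38dKO relative to WT. Other probes of both genes went the opposite way on Atmp38dKO, as far as -0.96 for Hspa4 and -0.86 for Hspa4l, and their direction is unsettled.

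Every HSP90 gene was highest on WT and lowest, after scaling, on Atmp38dKO. Hsp90aa1, the inducible cytosolic form, had 2978, 2145 and 2036, with log2 differences of -0.40 and -0.76 from WT. Its second probe, at 828, 507 and 534, gave -0.63 and -0.85, and its dimmest, at a signal of 25.5 on WT, gave 0.43 and -0.22. Hsp90ab1, the constitutive form, had 23084, 21084 and 21551, and differed by -0.05 and -0.31. Hsp90b1 (GRP94) of the ER had 3142, 2941 and 3462, with -0.02 and -0.08, within or about the spread of repeat spots. Trap1, the mitochondrial HSP90, had 112, 61.0 and 50.3, which was 1.74-fold lower on AtmsKO and 2.58-fold lower on Atmp38dKO at its only probe. Under normexp the latter was -0.79 in place of -1.37 on the log2 scale. The inducible form thus lay further from WT than the constitutive form on both arrays.

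**Figure D2:**
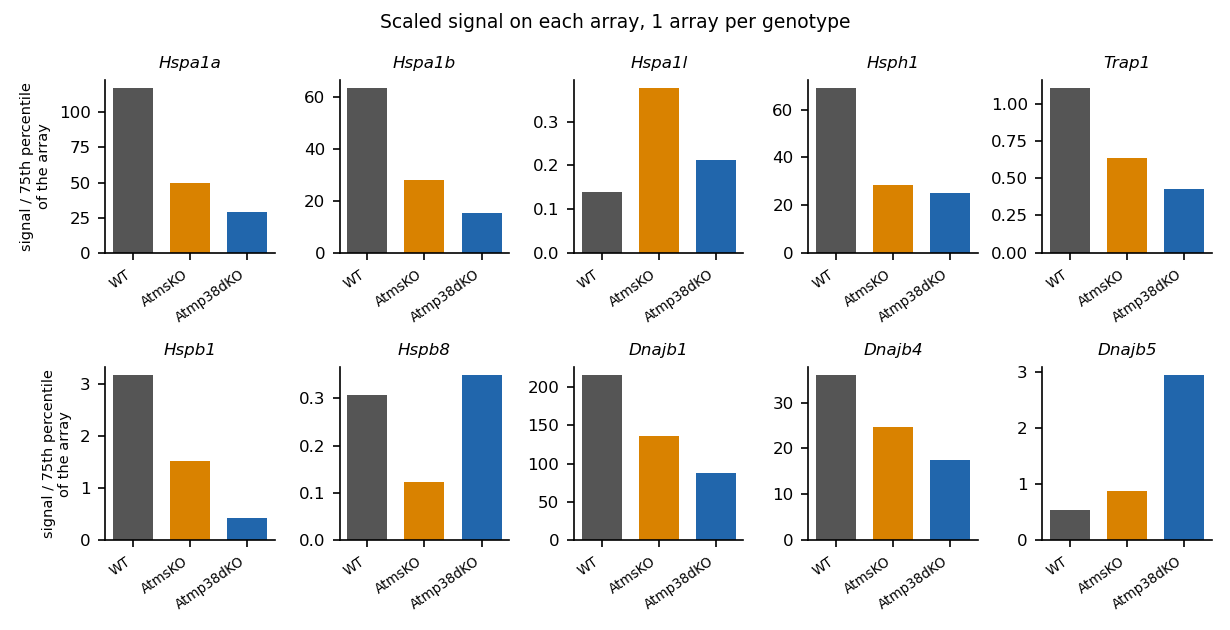
Signal divided by the 75th percentile of its array (y axis, linear from 0, a scale of its own in each panel) for the 10 members at least 2-fold apart in any comparison, with 1 bar per array and no replicates. Hspa1a, Hspa1b, Hsph1, Trap1, Hspb1, Dnajb1 and Dnajb4 step down from WT to AtmsKO to Atmp38dKO, while Hspa1l, Hspb8 and Dnajb5 do not.

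The small heat shock proteins form large oligomers that hold unfolded protein without ATP. Hspb1 (HSP27, probe at chr5:136365366-136365425, mm9) had 320 on WT, 146 on AtmsKO and 50.2 on Atmp38dKO. It was 2.08-fold lower on AtmsKO than on WT, 7.40-fold lower on Atmp38dKO than on WT and 3.56-fold lower on Atmp38dKO than on AtmsKO. Its difference of -2.89 on Atmp38dKO from WT was the widest among the members, and it was the only member lower by 2-fold in all 3 comparisons. It has 1 probe, and its signal on Atmp38dKO is well above the lowest signal told from background there, 4.97. Under normexp, which shrinks differences at low signal, the differences from WT were -0.84 on AtmsKO, short of 2-fold, and -1.92 on Atmp38dKO.

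Hspb8, which works with Bag3 in sorting misfolded protein for autophagy, had 31.3, 11.8 and 41.1. It was 2.51-fold lower on AtmsKO than on WT and 1.13-fold higher on Atmp38dKO, all at low signal, and under normexp the AtmsKO difference was -0.36 in place of -1.33. Cryab (αB-crystallin) had 317, 232 and 307 and differed from WT by -0.37 and -0.26. The 3 small heat shock protein genes therefore had no order in common.

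The mitochondrial chaperonin folds imported proteins inside a closed chamber. Hspd1 (HSP60) had 3211, 2361 and 3257 and its cofactor Hspe1 (HSP10) 6108, 4684 and 5704. Relative to WT they differed by -0.37 and -0.31 on AtmsKO and by -0.19 and -0.31 on Atmp38dKO. These genes share the printed start region with its heat shock element, and neither reached 2-fold on either array. All 5 mitochondrial members (Hspa9, Trap1, Hspd1, Hspe1 and Dnaja3) were highest on WT at their brightest probe, with medians of -0.31 on both mutant arrays, and of these probes only that of Trap1 passed 2-fold. For Dnaja3 and Hspa9 this depended on the probe, since over the mean of their probes the AtmsKO differences from WT were 0.52 and 0.04.

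J proteins stimulate the ATPase of HSP70. Dnajb1 (HSP40), the main heat-inducible J protein, had 21834 on WT, 13095 on AtmsKO and 10345 on Atmp38dKO. It was 1.58-fold lower on AtmsKO and 2.45-fold lower on Atmp38dKO. Dnajb4, a close relative, had 3646, 2378 and 2045, or 1.45-fold and 2.07-fold lower, the latter just past the 2-fold limit. Its other 3 probes above background on all arrays gave -0.43 to -0.32 on AtmsKO. On Atmp38dKO those at 1301 and 572 on WT gave -0.99 and -0.92, short of 2-fold, and the dimmest, at 46.0, gave -2.81. Dnaja1, another inducible J protein, had 2544, 1615 and 1793, with -0.58 and -0.72. A further probe of Dnaja1, at 36.5 on WT, gave -0.49 and -0.66. Its dimmest, at 8.83 on WT and below background on AtmsKO, went the opposite way on Atmp38dKO, at 0.50. Dnajb6, which restrains aggregation, had 1477, 1170 and 1175, with -0.26 and -0.55, and its 4 other probes ran from -0.06 to 0.31 and from -0.97 to 0.07.

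Dnajb5 stood out in the opposite direction at 1 probe only. Its brightest probe had 53.9 on WT, 84.5 on AtmsKO and 345 on Atmp38dKO, a 5.52-fold higher reading on Atmp38dKO than on WT. The other 2 probes, at 53.8 and 42 on WT, read 44.1 and 35.5 on Atmp38dKO, with differences of -0.50 and -0.45. Over the mean of its probes the difference was 0.50 and the gene was not called, and no direction can be given for it. Of the other J proteins, Dnaja2 had 1369, 1181 and 1308, Dnajb2 had 917, 626 and 865, and Dnaja3, the mitochondrial one, had 61.0, 55.8 and 49.7. None of these 3 reached 2-fold at its brightest probe. The second probe of Dnajb2 gave 0.17 and 0.19 relative to WT, opposite to its brightest probe. The other probe of Dnaja3, at 7.47, 15.1 and 16.3, went the opposite way, 2.14-fold and 1.87-fold higher than WT, so no direction can be given for that gene.

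The ER members gave a mixed picture, with Hspa5 and Dnajb9 lower on Atmp38dKO and the others nearer WT or unsettled. Dnajb9 (ERdj4), a partner of BiP induced by the unfolded protein response, had 2479, 1878 and 1588, with -0.32 and -0.86, and its second probe gave 0.05 and -0.92. Dnajb11 (ERdj3) had 601, 630 and 814, with 0.14 and 0.22, and Dnajc3 (p58IPK) had 403, 408 and 426, with 0.09 and -0.14. The median of the 6 ER members was 0.03 on AtmsKO and -0.38 on Atmp38dKO relative to WT, and 0 of 6 reached 2-fold on either. Both medians count Hspa13, on Atmp38dKO at its bound of -0.62, although no direction can be given for that gene. Hspa5 and Dnajb9 were the lowest, whereas Hsp90b1 and Dnajc3, which carry the same ER stress element as Hspa5, lay near WT.

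**Figure D3:**
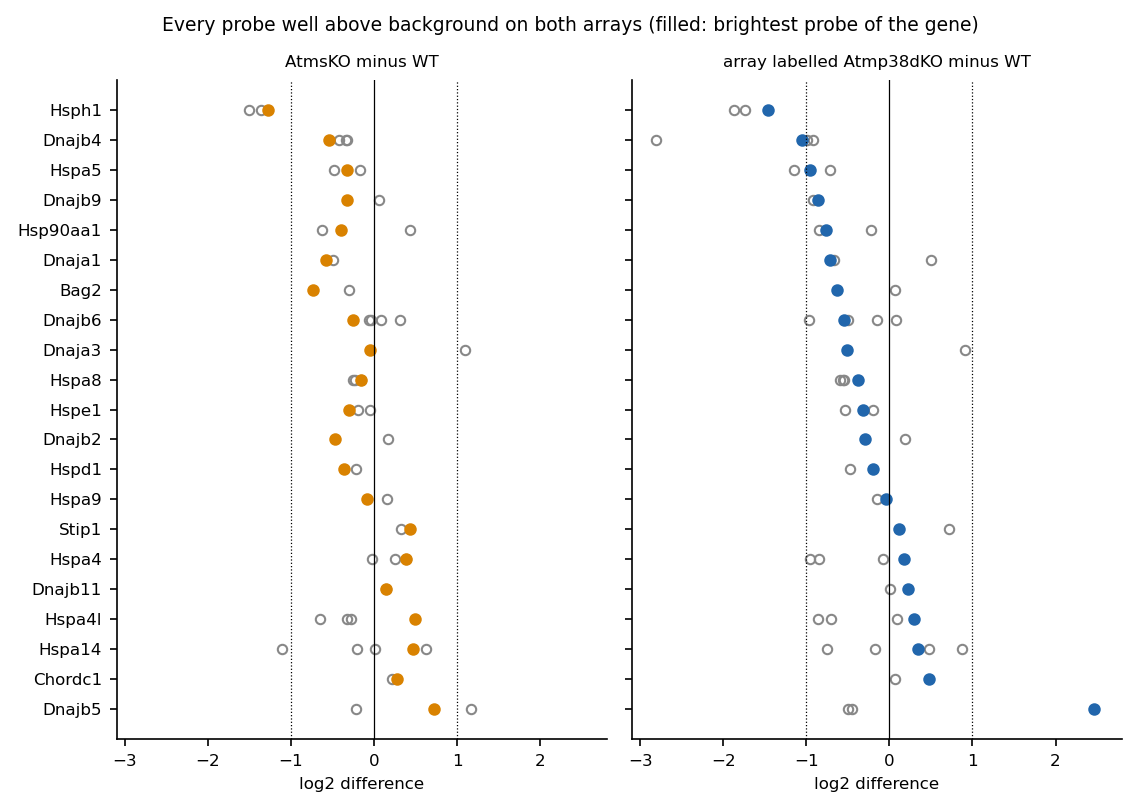
Log2 difference from WT (x axis) at every probe well above background on both arrays, for the members with more than 1 probe; filled points are the brightest probe of each gene and open points its other probes. All probes of Hsph1 lie beyond the left 2-fold line in both panels, those of Hspa5 and Hspa8 lie left of 0, and those of Dnajb5, Hspa14 and Hspa4l lie on both sides.

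Over all members, other probes above background went the same way as the brightest in 26 of 40 cases (65.0%) on AtmsKO and 27 of 41 (65.9%) on Atmp38dKO relative to WT, and in 30 of 41 (73.2%) between the mutant arrays. For all genes these shares were 53.0%, 53.5% and 54.4%. A mean signal of at least 100 was reached by 34 of the 42 members and by 11250 of 37074 genes, and the part of signal in these shares was not tested.

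The heat shock factors did not move with the inducible genes. Hsf1, the main activator of the response, had 135, 134 and 136, with log2 differences of 0.06 and -0.20 from WT. Hsf1 is controlled mostly by its binding partners and modification, which an expression array does not read. Hsf2 had 40.5, 66.9 and 60.0, with 0.80 and 0.35, at low signal.

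The co-chaperones were split. Bag3, an HSF1-induced nucleotide exchange factor, had 566, 338 and 400, and Bag2 had 145, 82.3 and 109, with differences from WT of -0.66 and -0.71 for Bag3 and of -0.74 and -0.63 for Bag2. The second probe of Bag2 gave -0.30 and 0.07, so its direction on Atmp38dKO depended on the probe. Stip1 (HOP), which links HSP70 to HSP90, had 1430, 1833 and 1790, and Bag1 had 2085, 2451 and 2792. Ahsa1, the activator of the HSP90 ATPase, had 1850, 1713 and 2556, and Chordc1, an HSP90 partner, had 193, 221 and 313. The differences of these 4 genes ran from -0.03 to 0.48. Stip1, Ahsa1 and Chordc1 are on the heat-inducible list, so that list was not lower as a whole. Without Hspa1a, Hspa1b, Hsph1, Dnajb1, Dnajb4 and Hspb1, the other 13 heat-inducible genes had medians of -0.31 and -0.26 relative to WT.

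**Figure D4:**
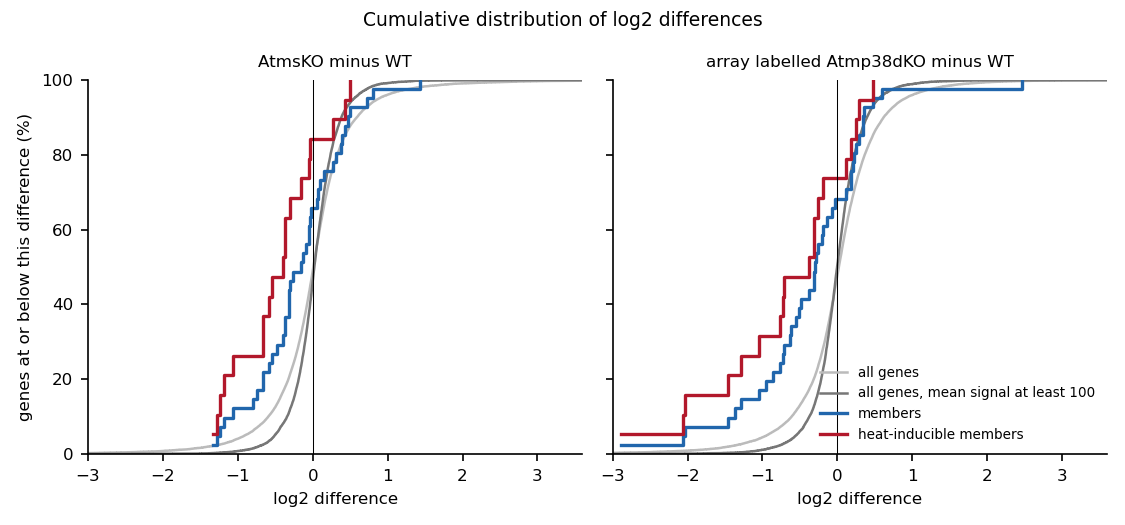
Percentage of genes (y axis) at or below each log2 difference (x axis) from WT, for AtmsKO and for the array labelled Atmp38dKO, with lines for all genes, all genes of mean signal at least 100, the members and the 19 heat-inducible members. The members' line passes its median at -0.15 on AtmsKO and -0.30 on Atmp38dKO, left of that for all genes at 0.01 and 0.02.

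The other chaperone genes on hand-written lists held 120 genes. The cytosolic chaperonin CCT with prefoldin, which folds actin and tubulin, had 0 of 15 genes past 2-fold in any comparison and medians of 0.17 on both mutant arrays relative to WT, with 0 of 15 highest on WT. Of 24 further co-chaperones 23 were compared, with medians of 0.06 and 0.03. None was called on AtmsKO. On Atmp38dKO Bag4 was higher, at 8.53 on WT and 21.7 there, and Unc45a, a myosin and HSP90 co-chaperone, was lower, at 106 and 52.5. Further J proteins had medians of -0.06 and -0.04, with 2 higher and 2 lower of 32 on AtmsKO and 1 higher and 3 lower of 31 on Atmp38dKO. Of all genes, 3.94% were higher and 4.09% lower on AtmsKO, and 4.02% were higher and 4.49% lower on Atmp38dKO. Dnaja4 was read at 89.7, 13.1 and 62.6, or 6.49-fold lower on AtmsKO than on WT, and its second probe went the same way. The other J proteins past 2-fold on AtmsKO were Dnajc16 (lower), Dnajc12 and Dnajc25 (higher), and those on Atmp38dKO were Dnajc16 and Dnajc22 (lower) and Dnajc12 (higher, with WT below background), beside Dnajc1. Dnajc1, a J protein of the ER membrane, had 391, 226 and 202, with -0.71 and -1.17.

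The ER folding and unfolded protein response list (28 genes) had medians of 0.03 and 0.05 relative to WT. On AtmsKO 2 were higher and 0 lower, where 3.94% of all genes were higher and 4.09% lower. On Atmp38dKO 3 were higher and 0 lower, where 4.02% were higher and 4.49% lower. Txndc5, a disulfide isomerase, was read at 22.2, 15.4 and 175, or 6.78-fold higher on Atmp38dKO than on WT at its only probe. Pdia5, of the same family, had 19.8, 46.8 and 43.2. Edem1, a factor of ER-associated degradation, had 36.0, 89.9 and 111, and Sil1, the exchange factor of BiP, had 153, 266 and 386. Unc45a, Dnajc12, Dnajc16, Edem1 and Sil1 were named after their values were seen, and each of these except Dnajc12 has a further probe that went the other way. Mitochondrial import and protease genes (11) had medians of 0.16 and 0.14, with Clpx, the unfoldase of a matrix protease, as the single gene past 2-fold, at 52.4, 11.7 and 20.5. The other probe of Clpx went the same way on Atmp38dKO relative to WT but the opposite way on AtmsKO. Of 9 further small heat shock proteins and factors, 6 were compared on AtmsKO, with 0 called, and 9 on Atmp38dKO, where Hspb9 was 1 higher, at 31.9 on WT and 96.2. The lower levels of the inducible members were thus not seen as a lower median in CCT, the further co-chaperones or the further ER list.

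Immediate early genes, which cells switch on within minutes of many stimuli, were read beside the chaperones. Their median over 16 genes was -0.12 on AtmsKO and -1.03 on Atmp38dKO relative to WT. Of them 0 and 8 were at least 2-fold lower and none higher, where 4.09% and 4.49% of all genes were lower. Atf3 had 440, 267 and 131, Jun 3652, 2740 and 1318, and Egr1 25186, 20033 and 10604. The heat-inducible chaperones had medians of -0.40 and -0.38 on the same arrays. On AtmsKO 5 heat-inducible genes and 0 of the 16 immediate early genes were at least 2-fold lower, and on Atmp38dKO genes of both lists were. Of these 5, Hspb1 and Hspb8 fell short of 2-fold under normexp. By direction alone the lists were alike on AtmsKO, with 16 of 19 heat-inducible and 14 of 16 immediate early genes below WT, beside 49.0% of all genes. The part of such stimuli in the chaperone differences was not tested, and with 1 array a group the genotype and the handling of each sample cannot be told apart.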

How the data were processed

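Total RNA of sorted LT-HSCs was labelled with Cy3 and hybridized to 3 one-colour Agilent arrays, 1 per genotype, which shared a slide and a scan per the file headers. The deposited scanner files, made with Agilent Feature Extraction 11.5.1.1 per the labels, hold an intensity per spot that is background-subtracted but not normalized between arrays, with probe coordinates on mm9. A deposited table of log2 values, which the authors scaled per array, matched log2 of the processed intensity after centring within 0.02 for 99.97%, 99.96% and 99.78% of probes on WT, AtmsKO and Atmp38dKO and served as an alternative. Its medians were -2.18, -2.21 and -2.16.

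Control and outlier spots were left out, spots of a probe were averaged, and each array was scaled to its 75th percentile. A probe passed the background check where over 50% of its spots carried the scanner flag for it. Values that did not pass were raised, unless higher, to the lowest passing level of that array. Scaling leaves relative levels only. Values were taken with Python 3.11.15 and pandas 2.3.3, and normexp correction (offset 50) with limma 3.58.1 in R 4.3.3. The functions were tested on simulated data. The number of arrays limits the precision.

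The members, lists and thresholds were chosen with earlier results of these data known. The genes named are the members, Atm, Mapk14, markers and up to 3 genes per further list and comparison. Those 3 were past 2-fold, above background on both arrays and with other probes going the same way. Unc45a, Dnajc12, Dnajc16, Edem1 and Sil1 do not meet this rule and were named after their values were seen. Gene names are those in the files. The result of 1 marker gene is left out of the text and of its list. Alternatives were normexp, quantile normalization, median centring, the authors' values, no floor, both arrays above background, the mean over probes, a 1.5-fold limit and the mean of differences.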

Additional observations from a re-analysis of the deposited data

How the results depend on the processing

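No paired analysis was possible because each genotype has 1 array, and no array could be left out for the same reason. Quantile normalization, median centring and the limit to genes above background on both arrays kept every count within 1.5 times its value and every median within the spread of repeat spots. Of 17 differences of at least 2-fold, 16 kept their direction under all 7 alternatives and 10 stayed past 2-fold under all of them. The exception was Dnajb5 between the mutant arrays, which was -0.0545 over the mean of its probes. Several alternatives could not change these differences. The genes concerned were above background on every array, so dropping the floor or requiring both arrays returned the same values. Where a gene had 1 probe, the mean over probes did as well, and the authors' values are nearly the same signals scaled per array. The figures of 16 and 10 therefore rest mainly on normexp, quantile normalization and, for genes with more than 1 probe, the mean over probes. The drops below 2-fold came from normexp and, for Dnajb5, from the mean over probes. With normexp, members lower on AtmsKO numbered 3 and higher 0, members higher between the mutant arrays 1, and the medians were -0.22 on Atmp38dKO and -0.093 between the mutant arrays. Over all genes normexp left 116 higher and 104 lower on AtmsKO in place of 1136 and 1181, 88 and 150 in place of 1224 and 1366 on Atmp38dKO, and 71 and 143 in place of 1127 and 1118 between the mutants. With the authors' values, and with no floor or filter, 3 members were lower between the mutant arrays, and over all genes without floor or filter 2217 were higher and 2971 lower on AtmsKO, 2892 and 2540 on Atmp38dKO, and 3201 and 1988 between the mutants. Over the mean of probes, members higher on Atmp38dKO numbered 0 and between the mutants 1, where 996 of 30502 and 881 of 30077 genes were higher. At 1.5-fold, 3 were higher and 9 lower on AtmsKO, 2 and 14 on Atmp38dKO, and 6 lower between the mutants. Over all genes at 1.5-fold, 2910 of 28865 were higher and 2945 lower on AtmsKO. On Atmp38dKO 3336 of 30456 were higher and 3237 lower, and between the mutants 2645 of 30017 were lower. The mean in place of the median was -0.38 on Atmp38dKO. Members of mean signal at least 100, an alternative added after the data were seen, gave 0 higher and a median of -0.28 on AtmsKO and 1 higher between the mutants. The cause of these changes was not tested.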
